A study of Mus musculus with 24 samples.

Results

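Per1, Per2, Per3, Cry1 and Cry2, the period and cryptochrome genes that encode the repressors of the circadian clock, were described in the livers of 24 mice. They were chosen by name and are 5 of the 15741 genes in the deposited tables. Their identifiers in the files are ENSMUSG00000020893 (Per1), ENSMUSG00000055866 (Per2), ENSMUSG00000028957 (Per3), ENSMUSG00000020038 (Cry1) and ENSMUSG00000068742 (Cry2). The mice were wild type (WT) or carried a whole-body deletion of GCN2 (GCN2 KO, written KO). GCN2, encoded by Eif2ak4, is a protein kinase that senses amino acid shortage through uncharged transfer RNA. Each genotype ate a control diet (Control) or a diet devoid of leucine (LeuD), an essential amino acid, and livers were taken at circadian time (CT) 3 h (CT03) or 15 h (CT15), which gave 8 groups of 3 mice. All mice had been kept on a 12-h light-dark cycle with 2 days on the control diet. The diets were then assigned at dark onset, lights went off for good 24 h later, and the animals were killed after 8 days of constant darkness. The circadian times therefore belong to free-running animals. With only CT03 and CT15 sampled, a shift of phase cannot be told apart from a change of level or of amplitude. Each animal was individually housed and fed ad libitum. The labels name no strain, sex or age.

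In the mammalian clock, the transcription factors CLOCK and BMAL1 (encoded by Arntl) bind E-box sequences and switch on the Per and Cry genes. PER and CRY proteins accumulate, enter the nucleus together and repress CLOCK and BMAL1, and so their own genes, until casein kinases and ubiquitin ligases have removed them. In mouse liver under a normal light-dark cycle, Per transcripts are known to be highest around the start of the night, when mice feed, and Cry1 transcripts to peak later than Per transcripts. Feeding time, glucocorticoids and heat shock are also known to act on liver Per genes, Per1 and Per2 above all.

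Promoter sequences of the repressor genes are shown because E-boxes and D-boxes are the textbook entry points of clock factors into these genes. The windows come from RefSeq on build GRCm38.p6, which is not the GRCm39 build named in the submitters' processing notes. The deposited tables hold no coordinates, so these positions belong to the RefSeq table alone. Windows were matched for 4 of the 5 genes and cover up to 250 bases before the annotated start, cut where an annotated exon of the gene begins. Each is written 5′ to 3′ on the strand of the gene in lower case, with motif matches in capitals. Per1 lies at chr11:69098699-69098947 on the plus strand (a second annotated start of Per1 held none of the motifs), Per3 at chr4:151044666-151044915, Cry1 at chr10:85185065-85185304 and Cry2 at chr2:92434070-92434319, all 3 on the minus strand.
Per1: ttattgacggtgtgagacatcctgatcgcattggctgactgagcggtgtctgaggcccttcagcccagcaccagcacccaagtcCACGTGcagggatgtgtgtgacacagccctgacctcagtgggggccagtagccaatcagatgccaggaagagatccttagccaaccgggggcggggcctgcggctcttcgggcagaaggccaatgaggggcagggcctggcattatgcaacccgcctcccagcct
Per3: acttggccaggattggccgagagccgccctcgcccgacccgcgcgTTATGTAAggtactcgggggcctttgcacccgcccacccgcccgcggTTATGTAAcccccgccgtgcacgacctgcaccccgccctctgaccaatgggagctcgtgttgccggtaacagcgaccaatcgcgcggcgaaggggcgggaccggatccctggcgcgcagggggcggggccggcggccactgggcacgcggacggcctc
Cry1: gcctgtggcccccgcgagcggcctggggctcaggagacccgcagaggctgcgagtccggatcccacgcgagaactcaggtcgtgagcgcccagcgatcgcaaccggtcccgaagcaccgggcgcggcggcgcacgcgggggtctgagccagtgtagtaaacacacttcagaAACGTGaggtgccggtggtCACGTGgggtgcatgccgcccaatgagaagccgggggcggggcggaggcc
Cry2: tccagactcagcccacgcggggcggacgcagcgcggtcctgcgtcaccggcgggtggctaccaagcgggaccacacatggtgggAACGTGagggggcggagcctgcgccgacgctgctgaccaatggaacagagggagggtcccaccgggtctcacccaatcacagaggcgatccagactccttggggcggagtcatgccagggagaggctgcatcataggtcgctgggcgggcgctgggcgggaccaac

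In these letters, the capitals of Per1 are an E-box, CACGTG, that begins 166 bases before the start. Cry1 has the same E-box 60 bases before its start and, 79 bases before it, a match in reverse orientation to the related E-prime box, CACGTT. Cry2 has 1 reverse match to the E-prime box, 166 bases before its start. Per3 has no match to either E-box and 2 copies of the D-box TTATGTAA, the element of the PAR bZIP factors DBP, TEF and HLF, 205 and 158 bases before its start. Both strands were searched, and matches of different motifs did not overlap. Among all 32851 RefSeq windows of the same 250 bases, 6.02% hold the E-box, 3.85% the E-prime box and 0.819% the D-box. The cyclic AMP response element TGACGTCA (1.55% of all windows), the REV-ERB response element TAGGTCA (2.23%) and the heat shock element GAANNTTC (6.69%) had no match in the 5 windows of these 4 genes. A match describes the letters and is not a measured binding site.

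RNA of each liver was enriched for polyadenylated transcripts and sequenced, and libraries held 34137121 to 44884200 reads on listed genes. Levels below are normalized counts on 1 scale for all 24 mice, in the order replicate 1, 2 and 3, and differences are log2(normalized count + 1) ± SE. The 10 hepatocyte markers summed to between 97313 and 201175 RPM (reads scaled to library size) in every library. Alb, 1 of the 10, alone read 61399 to 153438 RPM, so the sum mostly follows that gene. Pancreas acinar markers, 21 of 23 listed, summed to 15123 RPM in KO LeuD CT03 replicate 1, 8097 in KO LeuD CT15 replicate 3 and 4444 in WT LeuD CT15 replicate 1. The highest sum in any KO Control library was 694 and in any WT Control library 33.7. Prss1, Try10 and Amy2b had no value in some libraries and were left out of the sums there. No call on the 5 genes changed when the 3 libraries with the most acinar transcripts were left out. Eif2ak4 itself was read at 288 to 350 normalized counts in WT and at 244 to 464 in KO livers, and reads over a whole gene do not check a deletion of part of it. A pair of KO Control mice were set apart by their levels of other clock genes, as described with the KO values. The labels do not say whether mice of a group shared a litter or cage, and p-values measure only the spread between these mice.

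**Figure D1:**
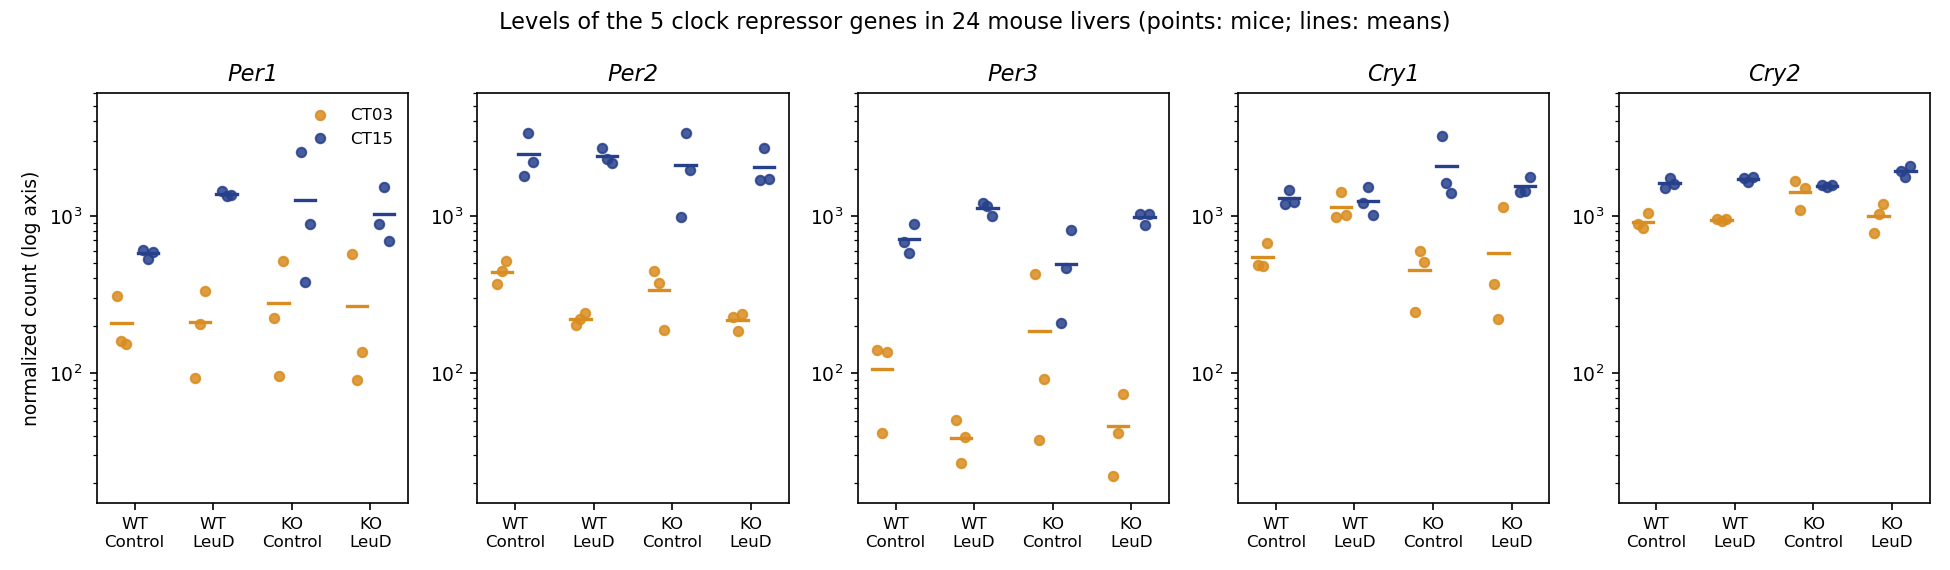
Normalized counts of Per1, Per2, Per3, Cry1 and Cry2 on a log axis for each mouse (points) with the mean of 3 mice (lines), by genotype and diet, at CT03 (orange) and CT15 (blue). Per2 at CT15 lies above Per2 at CT03 in all 4 conditions, with 982 as the lowest CT15 value and 517 as the highest CT03 value.

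Every repressor gene was higher at CT15 than at CT03 when the 4 combinations of genotype and diet were averaged. In WT mice on the Control diet all 5 genes rose. In WT mice on LeuD the 3 Per genes and Cry2 rose while Cry1 did not pass the test. In KO mice on Control none of the 5 passed the test of limma, and in KO mice on LeuD Per2 and Per3 did. By limma with Benjamini-Hochberg adjustment over all genes and a threshold of 0.05, 5 of 5 genes were called in WT Control, against 1.44% of all genes tested and 0.875% called higher. In WT LeuD 4 of 5 were called, all higher, against 9.58% of all genes and 4.32% called higher. In KO Control 0 of 5 were called by limma and 0 by edgeR, against 0.0407% of all genes and 0.0271% called higher. There, 3 of the 5 had an unadjusted p under 0.05, and DESeq2 called 2 of them and 357 of all genes. Shares of all genes count limma calls at the adjusted p, and the share with an unadjusted p under 0.05 was not counted. By unadjusted p in limma, Per1 in KO Control (0.0345) ranked 1398 of the 14745 genes tested. In KO LeuD 2 of 5 were called, both higher, against 0.831% of all genes and 0.664% called higher. Averaged over the 4 conditions in 1 fit of all 24 libraries, 5 of 5 were called higher, against 25.1% of all genes called and 12% called higher. The median of the 5 averaged differences was 2.21, beside 0.0087 over all genes. In whole-liver RNA, fewer cells of a type and less RNA per cell cannot be told apart.

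Per2, whose protein carries much of the repression by PER complexes, had CT03 and CT15 values that did not overlap in any of the 4 conditions. In WT Control it stood at 367, 445 and 517 at CT03 and at 1796, 3372 and 2217 at CT15. In WT LeuD it stood at 204, 222 and 241 at CT03 and at 2691, 2307 and 2178 at CT15. All WT mice at CT15 exceeded all WT mice at CT03. KO Control livers held 447, 374 and 187 at CT03 and 982, 3388 and 1949 at CT15. KO LeuD livers held 228, 184 and 238 at CT03 and 1682, 2700.1 and 1726 at CT15. The times did not overlap in either KO condition, although replicate 1 of KO Control at CT15 was far below its mates. The rise was 2.44 ± 0.23 in WT Control (adjusted p = 0.00739, limma), 3.42 ± 0.12 in WT LeuD (9.76e-06) and 3.20 ± 0.22 in KO LeuD (0.00158). In WT LeuD no other of the 14825 genes tested had a lower p. The KO Control difference was 2.56 ± 0.49 and missed the threshold in limma at an adjusted p of 0.159, while DESeq2 called it at 1.09e-06. Without WT Control CT03 replicate 2, the WT Control rise was 2.45 with an adjusted p of 0.0619. The order of the 8 group means had the 4 CT03 groups below the 4 CT15 groups, from 217 ± 28.6 (SD, n = 3) in KO LeuD CT03 to 2462 ± 816 in WT Control CT15. The single gap without overlap in that order lay between WT Control CT03 and KO LeuD CT15, and the other 6 pairs of neighbours overlapped.

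Per3, the third period gene, whose loss leaves the clock largely running, had the widest range of group means. In WT Control it read 141, 41.4 and 136 at CT03 and 680.4, 581 and 886 at CT15. In WT LeuD it read 50.6, 26.7 and 39.6 and 1203, 1161 and 993. The WT times did not overlap on either diet, and replicate 2 of WT Control at CT03 lay far below its mates. KO Control mice had 425, 37.4 and 91.6 at CT03 and 209, 464 and 816 at CT15. KO LeuD mice had 22.1, 41.9 and 74.1 at CT03 and 1035, 871 and 1025 at CT15. In KO Control the times overlapped through replicate 1 of each time, the highest CT03 mouse and the lowest CT15 mouse, whereas in KO LeuD every CT15 mouse was far above every CT03 mouse. The rise from CT03 to CT15 was 2.91 ± 0.44 in WT Control (adjusted p = 0.032, limma), 4.85 ± 0.22 in WT LeuD (2.00e-05) and 4.53 ± 0.39 in KO LeuD (0.00378). In KO Control the difference was 1.91 ± 0.88 with an adjusted p of 0.437. The WT Control call was lost without CT03 replicate 3, or without any 1 of the 3 CT15 mice, at adjusted p values of 0.0616 to 0.0794. From WT LeuD CT03 at 39 ± 12 to WT LeuD CT15 at 1119 ± 111, the group means spanned 28.7-fold. All 7 pairs of neighbours in the order overlapped.

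Per1, a period gene known to respond rapidly to hormones and other acute signals, had close WT values at CT15 and scattered ones at CT03. WT Control mice had 308, 160.2 and 153 at CT03 and 610.4, 531 and 593 at CT15. WT LeuD mice had 92.8, 206 and 334 at CT03 and 1437, 1336 and 1365 at CT15. Within WT, the 3 CT15 mice of each diet were close together and above every CT03 mouse. In KO Control, Per1 read 225, 96.3 and 515 at CT03 and 2531, 379 and 893 at CT15. In KO LeuD it read 572, 90.9 and 135 and 882, 1516 and 689.6. The KO Control times overlapped, with replicate 1 at CT15 the highest of all 24 mice, and the KO LeuD times did not, although replicate 1 at CT03 was well above its mates. Per1 rose by 1.55 ± 0.26 in WT Control (adjusted p = 0.0382, limma) and by 2.89 ± 0.38 in WT LeuD (0.00342). The KO differences were 2.08 ± 0.80 on Control (0.363) and 2.34 ± 0.63 on LeuD (0.14), and neither passed. Without KO LeuD CT03 replicate 1, one of the libraries with many acinar transcripts, the KO LeuD difference was 3.12 with an adjusted p of 0.0232, and the part of those transcripts in this was not tested. The WT Control call was lost in edgeR (0.0514) and without any 1 of 5 of the 6 mice, all but CT03 replicate 1, at adjusted p values of 0.0901 to 0.165. The order of the group means ran from 207 ± 87.6 in WT Control CT03 to 1379 ± 52 in WT LeuD CT15. WT Control CT15, the fifth in the order, overlapped with neither KO Control CT03 below it nor KO LeuD CT15 above it, and the other 5 pairs of neighbours overlapped.

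Cry1, which encodes the cryptochrome that gives the strongest and latest repression in the cycle, rose with time in WT Control and did not pass the test in WT LeuD. In WT Control it stood at 487, 479.7 and 669 at CT03 and at 1193, 1455 and 1234 at CT15, with no overlap. WT LeuD livers held 983, 1424 and 1006 at CT03 and 1205, 1531 and 1009.9 at CT15. The WT LeuD times overlapped, with the CT03 mice inside the range of the CT15 mice in 1 case and just below it in the others. KO Control mice had 246, 601 and 509.8 at CT03 and 3237, 1627 and 1397 at CT15. KO LeuD mice had 369, 221 and 1143 at CT03 and 1414, 1449.6 and 1764 at CT15. The KO times did not overlap on either diet, and at CT03 replicate 3 of KO LeuD was far above its mates. Cry1 rose by 1.26 ± 0.15 in WT Control (adjusted p = 0.0181, limma). In WT LeuD the difference was 0.13 ± 0.19 (0.706), with a 95% confidence interval of -0.30 to 0.56. In KO it was 2.20 ± 0.42 on Control (0.158) and 1.76 ± 0.51 on LeuD (0.162) in limma, while DESeq2 called both, at 1.16e-05 and 0.0415. Without KO LeuD CT03 replicate 3 the KO LeuD difference was 2.42 and passed at 0.00655. The WT Control call was lost without replicate 2 of CT03 or replicate 2 of CT15, at adjusted p values of 0.0547 to 0.1. Group means rose from 452 ± 184 in KO Control CT03 to 2087 ± 1002 in KO Control CT15, and all 7 pairs of neighbours overlapped.

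Cry2, the second cryptochrome, had the narrowest range of the 5, with group means that differed by at most 2.09-fold. It stood at 883, 835 and 1043 in WT Control CT03 and at 1509, 1745 and 1598 in WT Control CT15. It stood at 961, 922 and 949 in WT LeuD CT03 and at 1739.5, 1637 and 1772 in WT LeuD CT15. No WT mouse at CT03 reached a WT mouse at CT15. In KO Control the values were 1673, 1096 and 1498 at CT03 and 1569.6, 1532 and 1578 at CT15, so that the times overlapped. In KO LeuD they were 784, 1034 and 1182 at CT03 and 1926, 1762 and 2089 at CT15, without overlap. Cry2 rose by 0.82 ± 0.11 in WT Control (adjusted p = 0.0257, limma) and by 0.86 ± 0.09 in WT LeuD (0.00102). The KO LeuD difference of 0.96 ± 0.18 missed the threshold in limma (0.0574) and was called by DESeq2 (7.40e-04), and without KO LeuD CT03 replicate 3 limma called it at 1.09 (0.023). In KO Control the difference was 0.16 ± 0.18 (0.768), with a 95% confidence interval of -0.26 to 0.57. The WT Control call was lost without any 1 of 5 of the 6 mice, all but CT03 replicate 3, at adjusted p values of 0.053 to 0.131. The group means ran from 921 ± 109 in WT Control CT03 to 1926 ± 164 in KO LeuD CT15, and all 7 pairs of neighbours overlapped. In the GENCODE annotation of GRCm38, exons of Cry2 overlap those of D930015M05Rik on the opposite strand, and the library kit is normally one that leaves strand unmarked. If strand was unmarked here, reads of Cry2 and of that gene cannot be told apart in the shared stretch.

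**Figure D2:**
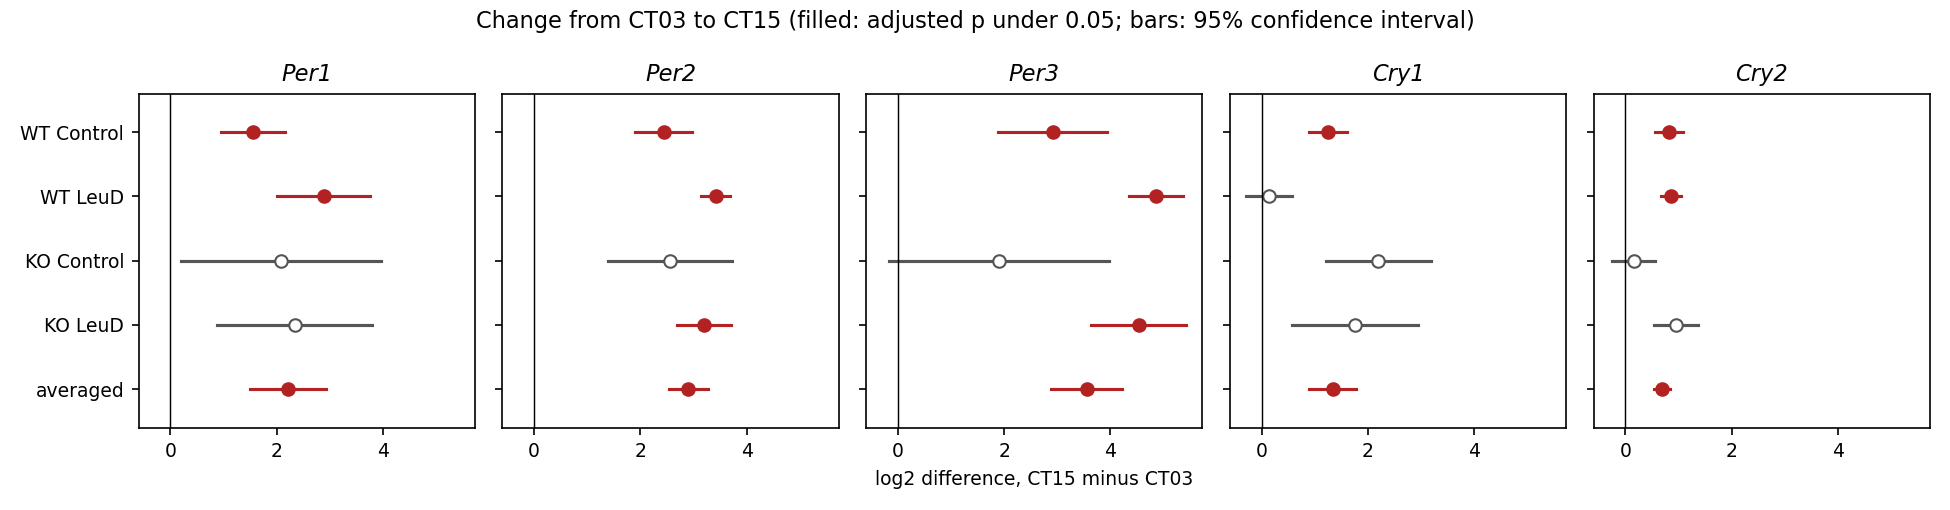
Log2 difference between CT15 and CT03 (x axis) for each gene in each genotype and diet and averaged over the 4 conditions; points are estimates, bars are 95% confidence intervals and filled red points have an adjusted p under 0.05. Cry1 in WT LeuD (0.13 ± 0.19) and Cry2 in KO Control (0.16 ± 0.18) lie nearest to 0.

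Averaging over genotype and diet gave each of the 5 genes a rise at CT15. The averaged rise was 3.55 ± 0.32 for Per3 (adjusted p = 2.24e-07), 2.90 ± 0.17 for Per2 (1.30e-09) and 2.21 ± 0.34 for Per1 (8.60e-05), by limma over 24 libraries. For the cryptochromes it was 1.34 ± 0.21 for Cry1 (1.26e-04) and 0.70 ± 0.07 for Cry2 (1.08e-06). These 5 calls held under every alternative run, each left-out library included. In the authors' deposited table of each condition, the number of the 5 genes with an adjusted p under 0.05 was 5 in WT Control, 4 in WT LeuD, 2 in KO Control (Per2 and Cry1) and 4 in KO LeuD (all but Per1). The share of all genes called there by the authors was not counted. DESeq2 as run here called 920, 2038, 357 and 845 of all genes in these conditions, in the same order.

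The KO Control mice referred to here as the pair that stood apart were replicate 1 at CT03 and replicate 1 at CT15. They were singled out after their values were seen, from clock genes outside the repressor set. Their labels were taken as given, and whether the labels of these libraries are right was not tested. Dbp, a clock output gene that is driven by CLOCK and BMAL1, read 3605, 56.7 and 591 in the 3 KO Control mice at CT03 and 74.4, 209.5 and 683 at CT15. Arntl read 241, 1189.8 and 1001 at CT03 and 1384, 906 and 513 at CT15. Nr1d1, which encodes the repressor REV-ERB alpha, read 5324, 1128 and 3529.7 at CT03 and 199, 68.1 and 312 at CT15. Replicate 1 at CT03 was thus highest of the 3 in Dbp and Nr1d1 and lowest in Arntl, and replicate 1 at CT15 was lowest in Dbp and highest in Arntl. Replicate 2 at CT03 was at the other extreme, lowest in Dbp and Nr1d1 and highest in Arntl. In Nr1d1, replicate 1 at CT15 lay between its mates. These values alone do not make the chosen CT03 mouse more unlike its mates than replicate 2. In Per3, replicate 1 at CT03 was highest and replicate 1 at CT15 lowest of its group. In Cry1 it was the other way round, with the CT03 mouse lowest and the CT15 mouse highest of its group. Without both mice, the KO Control time differences were 3.27 for Per2, 3.37 for Per3, 1.38 for Per1, 1.44 for Cry1 and 0.28 for Cry2. None passed limma with 2 mice per time (adjusted p 0.168 to 0.606).

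**Figure D3:**
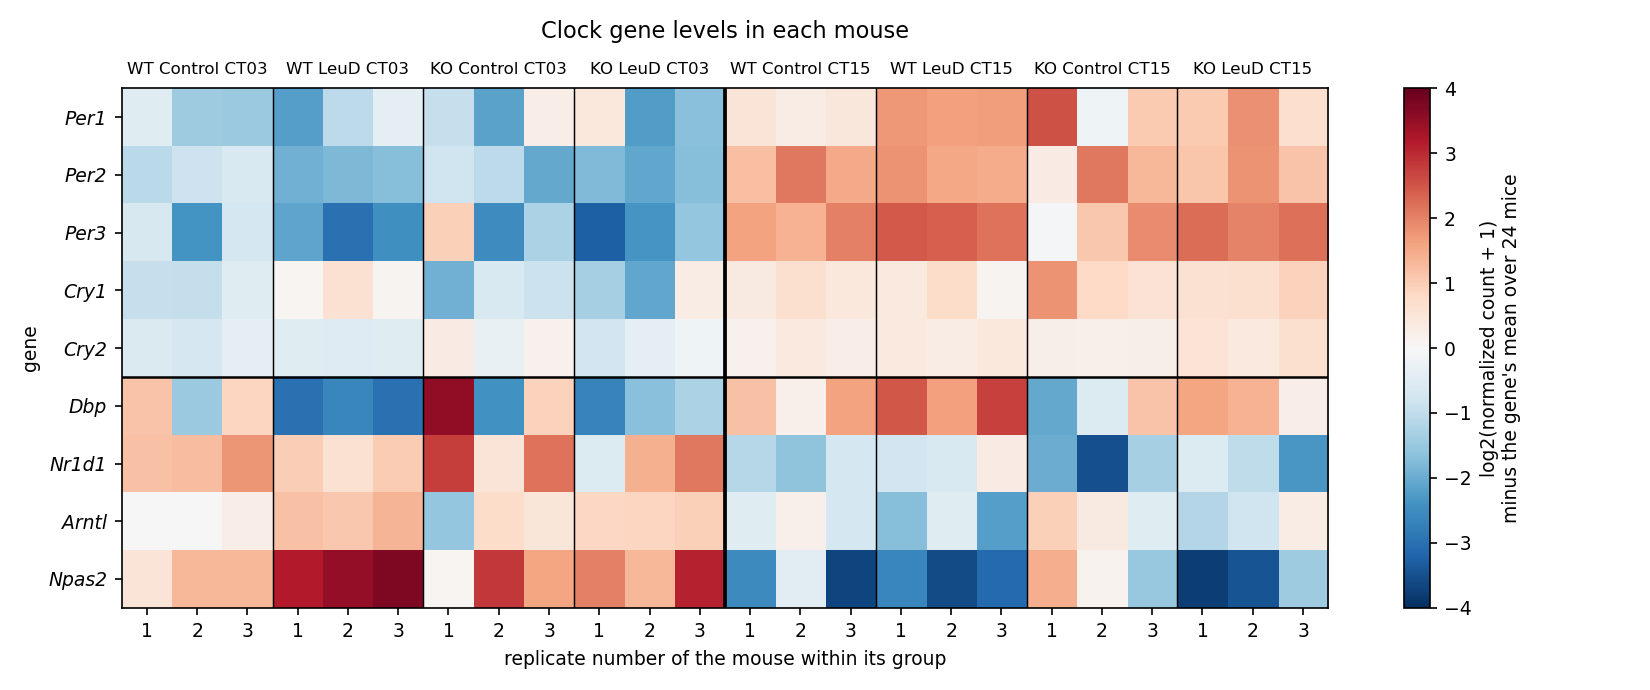
Heat map of log2(normalized count + 1) minus the gene's mean over 24 mice (colour), for the 5 repressor genes and for Dbp, Nr1d1, Arntl and Npas2 (y axis) in each mouse (x axis, replicate number within its group). In KO Control, replicate 1 at CT03 has Dbp at 3605, against 56.7 and 591 in its mates. Replicate 1 at CT15 has Dbp at 74.4, against 209.5 and 683 in its mates.

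The spread between mice of a group differed by genotype and diet. The SD of log2(normalized count + 1), pooled over the CT03 and CT15 groups, was 1.29 for Per1 in KO Control and 1.06 in KO LeuD, beside 0.40 in WT Control and 0.66 in WT LeuD. For Per3 it was 1.42 in KO Control, 0.61 in KO LeuD, 0.73 in WT Control and 0.34 in WT LeuD. Cry1 had 0.66 in KO Control and 0.86 in KO LeuD, beside 0.22 and 0.30 in WT on the same diets. Per2 had 0.79 in KO Control but 0.31 in KO LeuD, between the 0.37 of WT Control and the 0.14 of WT LeuD. Cry2 stayed at 0.23 or lower in every condition. Differences in spread between genotypes or diets were not tested, and the pair of KO Control mice above contribute to the KO Control values.

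Diet was compared at each time to see whether repressor levels differed on LeuD, where a shift of phase cannot be told apart from a change of level. In WT mice at CT03, Per2 was lower and Cry1 higher on LeuD than on Control, and in WT mice at CT15 Per1 was higher on LeuD. No repressor gene passed in KO mice. By limma 2 of 5 genes were called in WT at CT03, 1 in each direction, against 2.23% of all genes tested. In WT at CT15 1 of 5 was called, against 0.166% of all genes. In KO at CT03 limma, edgeR and DESeq2 each called 0 of 5, with 1 unadjusted p under 0.05, against 0% of all genes in limma and 520 genes in DESeq2. In KO at CT15 the 3 tools again called 0 of 5, with 1 unadjusted p under 0.05, against 0.0202% of all genes in limma and 698 genes in DESeq2. Averaged over genotype and time, limma, edgeR and DESeq2 called 0 of 5, against 13.9% of all genes called by limma, and 0 had an unadjusted p under 0.05. DESeq2 called 2453 of all genes in that average. The shares of all genes given for diet count limma calls at the adjusted p, not unadjusted p values. The WT comparisons at CT03 and the WT time comparisons share their CT03 mice, as do the CT15 ones, so they are not separate evidence. Summed marker levels of hepatocytes and of erythroid cells were compared between diets as well. The 5 erythroid markers summed to 229.7 to 460.2 RPM in WT Control and 121 to 150.4 in WT LeuD at CT03, and to 212 to 338 and 78.1 to 175 at CT15. In KO the erythroid sums were 276 to 381 on Control and 82.8 to 129 on LeuD at CT03, and 238 to 365 and 106 to 275 at CT15, where they overlapped. The 10 hepatocyte markers in KO summed to 124380 to 141614 RPM on Control and 158234 to 167544 on LeuD at CT03, and to 133700 to 150110 and 173110 to 201175 at CT15. In WT the hepatocyte sums overlapped between diets, at 109410 to 120304 and 113137 to 125038 at CT03 and 97313 to 136116 and 133197 to 158353 at CT15. Alb makes up most of each hepatocyte sum, and the part of these markers in the diet results was not tested.

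Per2 at CT03 was 443 ± 74.8 (SD, n = 3) in WT Control and 222 ± 18.7 in WT LeuD. The highest LeuD mouse, at 241, was below the lowest Control mouse, at 367. The difference was -0.98 ± 0.15 (adjusted p = 0.0227, limma). At CT15 the WT diets overlapped in Per2, with a difference of 0.00 ± 0.22 (95% confidence interval -0.49 to 0.50). In KO, Per2 differed by -0.55 ± 0.32 at CT03 and 0.09 ± 0.42 at CT15, with overlap at both times. Without the pair of KO Control mice that stood apart, these KO values were -0.30 and -0.37. The WT call at CT03 was lost without any 1 of 5 of the 6 mice, all but Control replicate 1, at adjusted p values of 0.0515 to 0.0896.

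Cry1 at CT03 was 545 ± 107 in WT Control and 1138 ± 248 in WT LeuD, and the lowest LeuD mouse, at 983, was above the highest Control mouse, at 669. The difference was 1.06 ± 0.18 (adjusted p = 0.0291, limma). At CT15 it was -0.07 ± 0.16 with overlapping diets. In KO the Cry1 difference was 0.10 ± 0.60 at CT03, where the LeuD mice spanned 221 to 1143, and -0.34 ± 0.30 at CT15. Without the same pair of KO Control mice the sign of both turned, to -0.29 and 0.03. The WT call at CT03 was lost without Control replicate 2, LeuD replicate 2 or LeuD replicate 3, at adjusted p values of 0.0813 to 0.0952.

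Per1 at CT15 was 578 ± 41.6 in WT Control and 1379 ± 52 in WT LeuD. Every LeuD mouse was above every Control mouse, and the 3 mice of each diet lay within a narrow range. The difference was 1.25 ± 0.10 (adjusted p = 0.0147, limma), and no other of the 15073 genes tested in that comparison had a lower p. At CT03 the WT difference was -0.08 ± 0.45, with overlap. In KO at CT15 it was 0.04 ± 0.63, where Control mice spanned 379 to 2531, and in KO at CT03 it was -0.22 ± 0.80. Without KO Control CT15 replicate 1, the highest of those Control mice, the KO difference of Per1 at CT15 was 0.74 (adjusted p = 0.39, limma), and the diet by genotype difference at CT15 went from -1.22 ± 0.72 to -0.51. Without KO LeuD CT03 replicate 1, a library with many acinar transcripts, the KO difference of Per1 at CT03 was -1.01. The WT call at CT15 was lost without Control replicate 1 (0.102) or LeuD replicate 2 (0.102).

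Per3 had differences of opposite sign at the times, none of which passed limma. LeuD minus Control was -1.28 ± 0.47 in WT at CT03 (adjusted p = 0.208) and 0.66 ± 0.16 in WT at CT15 (0.174). DESeq2 called both, at 0.0243 and 0.0199. In KO the Per3 differences were -1.45 ± 0.85 at CT03 (0.453) and 1.18 ± 0.43 at CT15 (0.255). Diets did not overlap at CT15 in either genotype and overlapped at CT03 in both. Without the pair of KO Control mice that stood apart, the KO differences of Per3 were -0.50 at CT03 and 0.66 at CT15, and no repressor gene was called for diet in KO. Cry2 differed by 0.04 ± 0.11 and 0.09 ± 0.10 in WT, and by -0.51 ± 0.21 and 0.30 ± 0.13 in KO, at CT03 and CT15. In the authors' deposited tables, 3 of the 5 genes had an adjusted p under 0.05 for diet in WT at CT03 (Per2, Per3 and Cry1), 2 in WT at CT15 (Per1 and Per3) and 0 in KO at either time. The share of all genes called by the authors was not counted. DESeq2 as run here called 961 of all genes in WT at CT03, 531 in WT at CT15, 520 in KO at CT03 and 698 in KO at CT15. When limma was fitted to all 24 libraries, 0 of the 20 diet tests of the 5 genes passed.

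**Figure D4:**
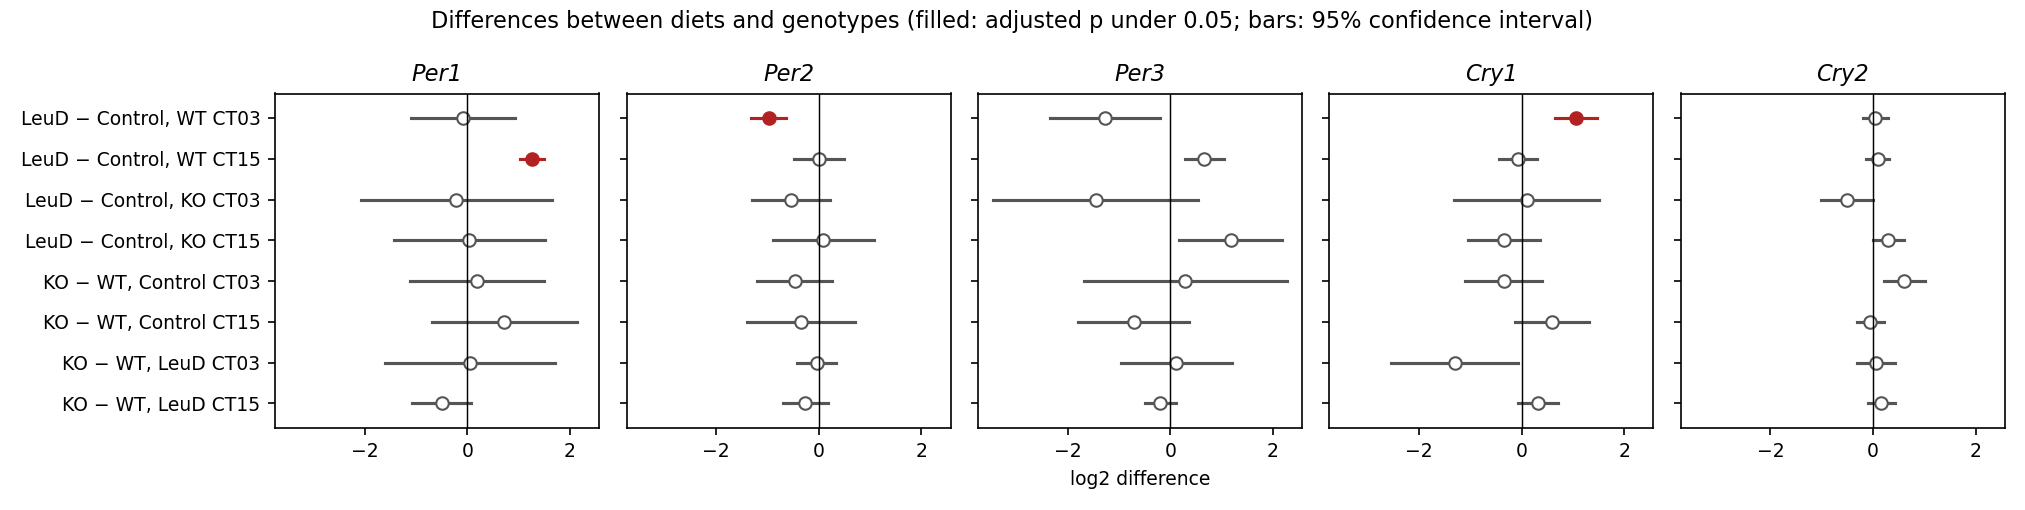
Log2 differences between diets (LeuD minus Control) and between genotypes (KO minus WT) for each gene on the x axis, with 1 line per comparison; points are estimates, bars are 95% confidence intervals and filled red points have an adjusted p under 0.05. Per2 and Cry1 in WT at CT03 and Per1 in WT at CT15 are the 3 filled points of the 40 plotted.

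Deletion of GCN2 was compared with WT on each diet and at each time. No repressor gene passed the test in any of the 4 comparisons, and most KO groups enclosed or overlapped the WT values. Limma called 0 of 5 genes on Control at CT03, against 0.0136% of all genes, with 1 unadjusted p under 0.05. On Control at CT15 it called 0 of 5, against 0.0798% of all genes, with 0 unadjusted p under 0.05. On LeuD at CT03 the count was 0 of 5, against 0.0474% of all genes, with 1 unadjusted p under 0.05. On LeuD at CT15 it was 0 of 5, against 1.84% of all genes, with 0 unadjusted p under 0.05. Across these 20 tests edgeR and DESeq2 also called 0. Of all genes, DESeq2 called 95, 48, 494 and 1044 in the 4 comparisons, in the order given. The average over diet and time gave 0 of 5 calls in limma, edgeR and DESeq2, against 2.48% of all genes called by limma, with 1 unadjusted p under 0.05. In that average DESeq2 called 765 of all genes. The shares of all genes given for genotype count limma calls at the adjusted p, not unadjusted p values. The hepatocyte sums given with the diets, mostly Alb, were higher in each KO library than in any WT library on LeuD at each time. The same held on Control at CT03. On Control at CT03 they were 124380 to 141614 RPM in KO and 109410 to 120304 in WT, and on Control at CT15 the genotypes overlapped. On LeuD the 5 endothelial markers summed to 302 to 332 RPM in WT and 227 to 274 in KO at CT03. At CT15 on LeuD these were 268 to 304 and 177 to 231, and on Control the endothelial sums overlapped at both times. The part of hepatocyte and endothelial markers in the genotype results was not tested.

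Cry2 had the lowest unadjusted p of the 5 in the averaged genotype comparison, at 0.0131, with KO minus WT at 0.20 ± 0.07 (adjusted p = 0.153, limma). On Control at CT03 Cry2 was 921 ± 109 in WT and 1422 ± 296 in KO, and the genotypes did not overlap. How many of all genes had no overlap there was not counted. That difference was 0.61 ± 0.17 (adjusted p = 0.537, limma). On Control at CT15 it was -0.05 ± 0.11, and on LeuD 0.06 ± 0.16 at CT03 and 0.16 ± 0.12 at CT15. Without the KO Control mouse that stood apart at CT03, the CT03 difference on Control was 0.48 for Cry2 (0.775) and -0.65 for Per3, beside 0.29 ± 0.85 for Per3 with it.

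For Cry1, KO minus WT was -1.30 ± 0.53 on LeuD at CT03 (adjusted p = 0.354, limma), where KO replicates 1 and 2 were below all WT mice and replicate 3 was among them. Without KO LeuD CT03 replicate 3 it was -1.97 with an adjusted p of 0.0059. In the other comparisons the Cry1 difference lay between -0.35 ± 0.32 (Control at CT03) and 0.59 ± 0.30 (Control at CT15). Per1 on LeuD at CT15 differed by -0.50 ± 0.25 (0.333). Without KO LeuD CT15 replicate 2, the highest KO mouse of that group, it was -0.82 with an adjusted p of 0.0402. Per2 differed by -0.47 ± 0.31 and -0.35 ± 0.45 on Control and by -0.04 ± 0.16 and -0.26 ± 0.19 on LeuD, at CT03 and CT15. For Per3 the difference was -0.71 ± 0.46 on Control at CT15, with a 95% confidence interval of -1.79 to 0.36. Without KO Control CT15 replicate 1, the Control CT15 differences were -0.20 for Per3, 0.23 for Cry1, 0.11 for Per2 and 0.01 for Per1, beside 0.72 ± 0.60 for Per1 with it. Without KO Control CT03 replicate 1, the Control CT03 differences were -0.72 for Per2 and 0.04 for Cry1. Averaged intervals for KO minus WT were -0.60 to 0.82 for Per1, -0.64 to 0.08 for Per2, -0.80 to 0.55 for Per3 and -0.63 to 0.26 for Cry1.

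The differences between effects were tested directly, since a call in one condition and not in another does not show that the conditions differ. No repressor gene passed for any of them in limma. Shares of all genes below count limma calls at the adjusted p, and the share with an unadjusted p under 0.05 was not counted. The time by diet difference in WT had 0 of 5 calls, against 0.00679% of all genes in limma. In it, 4 of the 5 had an unadjusted p under 0.05, edgeR called 0, and DESeq2 called 2 of them and 72 of all genes. In KO the time by diet difference had 0 of 5 calls, against 0% of all genes in limma, with 2 unadjusted p under 0.05 and 0 calls by edgeR and DESeq2. There DESeq2 called 47 of all genes. The time by genotype difference had 0 of 5 calls and 1 unadjusted p under 0.05 on Control, against 0.0271% of all genes. On LeuD it also had 0 of 5 calls and 1 unadjusted p under 0.05, against 0.0205% of all genes. For the diet by genotype difference, 0 of 5 passed at CT03 with 1 unadjusted p under 0.05, against 0% of all genes, and 0 of 5 at CT15 with 0 unadjusted p under 0.05, against 0.102%. EdgeR and DESeq2 called 0 of 5 in each of these 4 comparisons. Of all genes, DESeq2 called 10, 88, 180 and 297 in them, in the order given. In the average over the third factor, 0 of 5 passed for time by diet, against 0% of all genes. There, 3 had an unadjusted p under 0.05, edgeR called 0, and DESeq2 called 1 of the 5 and 48 of all genes. For time by genotype 0 of 5 passed against 0.0345% of all genes, with 1 unadjusted p under 0.05. For diet by genotype 0 of 5 passed against 1.49% of all genes, with 0 unadjusted p under 0.05, and both other tools called 0 of 5 in the latter pair. Of all genes, DESeq2 called 15 for time by genotype and 856 for diet by genotype.

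Cry1 and the Per genes had estimates of opposite sign for the time by diet difference of WT mice. For Cry1 the CT15 minus CT03 change on LeuD less that on Control was -1.12 ± 0.26 (unadjusted p = 0.00106, adjusted p = 0.362, limma). For Per3 the same difference was 1.94 ± 0.55 (0.459), for Per1 1.34 ± 0.52 (0.713) and for Per2 0.98 ± 0.28 (0.462). Cry2 had 0.04 ± 0.14. DESeq2 called Per3 (0.00802) and Cry1 (0.0268), and limma called Per3 at 2.51 (0.0329) without WT Control CT03 replicate 2. In KO mice the same difference was 2.63 ± 1.06 for Per3, 0.81 ± 0.26 for Cry2 and -0.44 ± 0.75 for Cry1, none of them called. Without the pair of KO Control mice that stood apart, these were 1.17 for Per3, 0.68 for Cry2 and 0.31 for Cry1, whose sign turned.

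The time change of Cry1 on LeuD in KO less that in WT was 1.62 ± 0.62 (adjusted p = 0.456, limma) and did not pass. Without KO LeuD CT03 replicate 3 this difference was 2.29 with an adjusted p of 0.0247. The time change of Cry2 on Control differed between KO and WT by -0.66 ± 0.21 (0.977), and by -0.54 without the pair of KO Control mice that stood apart (0.91). Averaged over diet, the time by genotype difference was 1.28 ± 0.43 for Cry1 (0.489) and -0.01 ± 0.68 for Per1. The Per2 value was -0.05 ± 0.35, with a 95% confidence interval of -0.77 to 0.68.

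Across the 24 livers the levels of the 5 genes went together to different degrees. Pearson's r of log2 levels was 0.91 between Per2 and Per3, 0.90 between Per3 and Cry2 and 0.50 between Per3 and Cry1. These values are descriptions over mice that share the sampling times. After the mean of its group was taken from each mouse, r was 0.71 for Per3 with Cry2 and −0.44 for Per1 with Per2. Among 11948 genes with reads in all 24 libraries and a mean of at least 50, the genes most like each repressor over the 24 livers were also listed by Pearson's r. Per1 was most like St3gal5 (0.97), Por (0.90) and Atl2 (0.90). Per2 was most like Pdxk (0.97), Marveld1 (0.95) and Gm45819 (0.95). Per3 was most like Tef (0.96), a PAR bZIP factor, Wee1 (0.95), a cell cycle kinase, and Usp2 (0.94), a ubiquitin-specific protease. Cry1 was most like Itpr1 (0.86), Lonrf3 (0.86) and Ppm1l (0.85). Cry2 was most like Nampt (0.89), the rate-limiting enzyme of NAD salvage, Tef (0.89) and Nudt19 (0.88).

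Other genes of the clock and of the inputs to Per genes were followed from 8 lists, counted in the averaged time comparison of limma, where 25.1% of all genes were called. Of 4 measured clock activators 3 fell at CT15 and 0 rose, among them Npas2, a partner of BMAL1, at -4.08 ± 0.41, and Arntl at -1.04 ± 0.25. Nr1d1 fell as well (-2.53 ± 0.32). Of 4 genes in the PAR bZIP and NFIL3 list 3 rose and 0 fell, with Tef at 1.99 ± 0.17 and Dbp at 1.94 ± 0.51. Of 3 other E-box repressors 2 rose, Ciart (3.41 ± 0.28) and Bhlhe40 (1.84 ± 0.26), and 0 fell. The list of 23 kinases, phosphatases and ubiquitin ligases of PER and CRY proteins had 3 that rose and 7 that fell, with a median of −0.08 beside 0.0087 for all genes. Usp2, which removes ubiquitin from clock proteins, rose by 3.88 ± 0.25, and Fbxw7, a ubiquitin ligase subunit, fell (-0.46 ± 0.08). Among 9 partners in PER complexes 3 rose and 3 fell. Of 9 glucocorticoid-induced genes 5 rose and 1 fell, with Fkbp5 at 1.88 ± 0.28 and Tsc22d3 at 1.53 ± 0.19. Of 10 heat shock genes 9 rose and 0 fell, with Hspa1b at 1.99 ± 0.31 and Hspa8 at 0.76 ± 0.10. Of 9 genes in the CREB-induced list 1 rose, Sik1 (1.02 ± 0.18). In the same list 1 fell, Crtc2 (-0.31 ± 0.10), which encodes a coactivator of CREB.

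The same lists were counted for diet in WT at CT03, where Per2 fell and Cry1 rose and 2.23% of all genes were called. Of 4 clock activators 2 rose, Npas2 (2.43 ± 0.24, adjusted p = 0.00492, limma) and Arntl (1.10 ± 0.11, 0.00499). Of 3 other E-box repressors 2 fell, Bhlhe40 (-0.98 ± 0.13) and Bhlhe41 (-1.89 ± 0.36). Of 4 PAR bZIP and NFIL3 genes, Tef (-1.08 ± 0.17) and Dbp (-3.02 ± 0.59) fell and Nfil3 (0.92 ± 0.11) rose. Glucocorticoid-induced genes had 2 of 9 that rose, Cdkn1a (2.37 ± 0.16) and Fkbp5 (1.14 ± 0.17), and heat shock genes 1 of 10 that fell, Hspa1b (-0.78 ± 0.16). The kinase and ligase, PER partner and CREB lists had 0 calls there. At CT15 in WT, where Per1 rose on LeuD and 0.166% of all genes were called, 1 of the 9 glucocorticoid-induced genes was called higher, Mt2, a metallothionein (3.86 ± 0.36), and the other lists had 0 calls.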

How the data were processed

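Polyadenylated liver RNA of 24 mice was sequenced. The submitters' processing notes name build GRCm39 and the tools DESeq2, DESeq, featureCounts, Subread 1.5.2, STAR 2.5.2b and Trimmomatic 0.36. Settings, annotation and the counting of multi-mapping reads were not given in the sources used here. The authors deposited 10 tables of 2 groups each with library values, a log2 fold change, a p-value and an adjusted p-value. Library values were deposited as a signal, gene counts over a size factor set in each table, and 100% came out as whole reads within 0.01. In 44 comparisons of a library between tables, 0 reads differed. For 2 columns with a size factor near 1, reads were recovered with the factor from the library's other tables.

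Recovered reads were divided by median-of-ratios size factors of the 24 libraries, so each mouse has 1 value per gene. The differences of 2 groups came from limma 3.58.1 (intensity trend, 2-sided moderated test) on log2(normalized count + 1) of 6 libraries, those between effects from 12 and the averages from 24. P-values were adjusted by Benjamini-Hochberg over all genes of the fit, and genes were called under 0.05. A pseudocount of 1 understates changes of low genes. KO against WT on LeuD, in none of the tables used here, rests on the recovered reads. The fits were run on simulated counts in which each gene had the same dispersion in every group. In these livers the observed spread differed between groups, a difference that was not tested and that the simulation does not cover. Other tools were edgeR 4.0.16 and DESeq2 1.42.0 (R 4.3.3). Alternatives were the scale of each deposited table, TMM factors, pseudocounts of 0.5 and 4, a mean of at least 10, 1 fit of 24 libraries, a replicate block, and leaving out each library, 3 acinar libraries or, chosen after seeing the data, 2 KO Control libraries.

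The members and gene lists (clock activators, PAR bZIP factors and NFIL3, other E-box repressors, kinases, phosphatases and ubiquitin ligases, PER partners, glucocorticoid-induced, heat shock and CREB-induced genes) were chosen with earlier results of these data known. The nuclear receptor list is not reported here. Named list genes were up to 3 per list with the lowest p for averaged time, plus up to 2 called per comparison. No libraries of a group agreed within sampling noise (lowest chi-square per degree of freedom 34.2).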

Additional observations from a re-analysis of the deposited data

How the results depend on the processing

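Of the 20 time tests of the 5 genes, 11 were called, and 7 to 13 without 1 library (7 without replicate 2 of WT Control at CT03 or at CT15). Of the 20 diet tests 3 were called, 5 by DESeq2, 0 with all 24 libraries in 1 fit, and 1 to 3 without 1 library (1 without WT Control CT03 replicate 2, WT LeuD CT03 replicate 2 or WT LeuD CT03 replicate 3). Of the 20 genotype tests 0 were called, and 0 to 1 without 1 library (Cry1 on LeuD at CT03 without KO LeuD CT03 replicate 3, Per1 on LeuD at CT15 without KO LeuD CT15 replicate 2). Time by diet had 0 of 10 calls, 2 by DESeq2 and 0 to 1 without 1 library (Per3 in WT without WT Control CT03 replicate 2). Time by genotype had 0 of 10, and 0 to 1 without 1 library (Cry1 on LeuD without KO LeuD CT03 replicate 3). Diet by genotype had 0 of 10, and 0 without any 1 library. The averaged effects had 5 of 30, 6 by DESeq2 (Per3, time by diet, adjusted p = 0.0491) and 5 to 6 without 1 library (Per2 for diet at -0.47, adjusted p = 0.0308 in limma, without KO Control CT15 replicate 1). The cause of these changes was not tested.

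Of 19 calls, 11 held under every alternative and 0 changed sign. Of 101 differences that were not called, 43 changed sign under some alternative. With all 24 libraries in 1 fit, which share 1 estimate of the spread, 5 calls were gained and 5 lost, among them Per1 and Cry1 for time in WT Control. In 0 of 12 comparisons was every correlation of same-numbered mice over 0.1 (range −0.374 to 0.383). That rule cannot show whether same-numbered mice shared a litter, cage or batch, and the replicate numbers were treated as names. With the replicate block, Per1, Cry1 and Cry2 for time in WT Control had adjusted p values of 0.0654, 0.0654 and 0.0678, and no other call on the 5 genes changed.

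Counts over all genes moved more. For time in WT Control limma called 215 genes, 920 by DESeq2 and 42 with the replicate block. For time in WT LeuD the count was 1420, 720 in 1 fit of 24 libraries and 741 with the block. For time in KO Control it was 6, 357 by DESeq2 and 578 in 1 fit, and for time in KO LeuD 124, 845 by DESeq2, 1176 in 1 fit and 9 without the 3 acinar libraries. For diet it was 329 in WT at CT03 (961 by DESeq2, 24 in 1 fit), 25 in WT at CT15 (531 and 3), 0 in KO at CT03 (520 and 628) and 3 in KO at CT15 (698 and 1219). For genotype on LeuD at CT15 it was 272, 1044 by DESeq2, 33 with the block and 24 without the 3 acinar libraries. With 3 mice per group, a missed threshold does not show that values were equal. The share of all genes whose groups did not overlap was not counted for any comparison. The lowest level of the 5 genes was 22.1 normalized counts, and how far depth limits these tests was not tested.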
